A study of Rattus norvegicus with 18 samples.

Results

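The 10 BCL2 family genes Bcl2, Bcl2l1, Mcl1, Bax, Bak1, Bbc3, Bcl2l11, Pmaip1, Bid and Bad were followed by RNA-seq through 6 groups of rat fibroblasts that differ in MYC and in the aryl hydrocarbon receptor AHR. Members were taken by symbol from a list of BCL2 family genes, and all 10 were among the 13188 genes of the table. The cells were HO15.19, a line of Rat1 fibroblasts in which both copies of Myc are disrupted (myc-/-). Myc-/- + MYC cells are the same line with human MYC put back stably by a viral vector, and all groups share the myc-/- background and a medium with 10% foetal bovine serum. Each of the 6 groups had 3 libraries. The myc-/- cells, which by the text of the study carry the vector without MYC, although the labels do not name it, were sequenced untransfected and after siCtrl, a control siRNA. The myc-/- + MYC cells were sequenced as they were, after siCtrl, and after siAHR-2 or siAHR-5, separate siRNAs against Ahr, every siRNA being used at 40 nM for 48 h. Every group comes from 1 parental line, and the labels name no separate clones or cultures, so p-values measure the spread between these libraries, which may be technical.

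BCL2 family proteins decide whether the outer mitochondrial membrane stays intact. The pro-survival members BCL2, BCL-XL (encoded by Bcl2l1) and MCL1 hold back the effectors BAX and BAK1, which open the membrane and release cytochrome c. The BH3-only proteins PUMA (Bbc3), BIM (Bcl2l11), NOXA (Pmaip1), BID and BAD start the process by binding the pro-survival proteins or by activating the effectors. MYC is a transcription factor that drives growth and is also known to lower the threshold for apoptosis, through both arms of this family. AHR is a ligand-activated transcription factor. Much of the regulation of these proteins happens after transcription and by splicing, and a gene-level value does not separate isoforms such as the long and short forms of BCL-X.

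All values are log2 values normalised by the authors, on scales that differ between 6 libraries, here the set of 6, and the remaining 12, here the set of 12. The set of 6 holds myc-/- + MYC with myc-/- siCtrl as its control, and the set of 12 holds myc-/- together with every siRNA group of the myc-/- + MYC cells. Groups were compared only within a set, so the effect of MYC was measured once in each: against myc-/- siCtrl for the untransfected MYC cells, and against myc-/- for the MYC cells that had received siCtrl. Transfection changes together with MYC in both comparisons, in opposite directions, and the 2 cannot be told apart. Each fold change below was tested with limma over all 13188 genes with Benjamini-Hochberg adjustment. A gene was called changed when it differed at least 1.5-fold (0.585 on the log2 scale) with an adjusted p of at most 0.01, and "rose" and "fell" are kept for called genes.

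The target of the siRNAs was lower in the libraries labelled with them. Ahr measured 13.34, 13.26 and 13.22 in myc-/- + MYC siCtrl, 11.97, 11.97 and 12.03 with siAHR-2, and 11.95, 11.76 and 11.94 with siAHR-5. In the remaining libraries Ahr was 12.01, 11.67 and 11.95 in myc-/-, 12.50, 12.44 and 12.39 in myc-/- siCtrl, and 12.88, 12.97 and 13.03 in myc-/- + MYC. The row of the rat Myc gene was highest in the libraries labelled without MYC, at 10.82 to 10.94 in myc-/- and 9.16 to 9.47 in myc-/- siCtrl, and lay at 8.01 to 8.53 in those labelled with it. A gene-level value does not show whether reads come from the disrupted part of Myc, and the vector carries the human gene, so this row checks neither label. One library stood apart from its group: in myc-/- replicate 2, 116 genes lay at least 1.5-fold from both other myc-/- replicates, against at most 6 genes in any other library. Of 11 fibroblast markers, all were in the table and 10 averaged at least 5 in every group, Col1a2 being the exception at 3.64 to 4.13. Their summed level was 22.02 to 22.24 in myc-/- and 20.28 to 20.31 in myc-/- + MYC siCtrl, and 20.87 to 20.89 in myc-/- siCtrl against 20.00 to 20.10 in myc-/- + MYC, so the sum was lower with MYC in both sets. Single markers were mixed in the set of 6, where 1 rose and 5 fell, and were lower throughout in the other set, where 7 of the 11 fell and none rose. Markers of other cell types (12 of 15 in the table) were also lower in sum with MYC, at 11.14 to 11.18 in myc-/- siCtrl against 10.24 to 10.39 in myc-/- + MYC, and at 10.65 to 10.85 in myc-/- against 10.38 to 10.48 in myc-/- + MYC siCtrl. In each set 1 of these 12 markers rose and 2 fell. With siAHR-2 and siAHR-5 the fibroblast sum was 20.05 to 20.09 and 20.05 to 20.07, below the 20.28 to 20.31 of siCtrl, with 0 and 1 of the 11 markers called (the 1 higher) and 3 called higher with siAHR-5 than with siAHR-2. The part of either marker list in the results on the BCL2 family was not tested.

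Promoter windows of RefSeq (rat build GRCr8, 250 bases before to 50 bases after a start site) were found for 8 of the 10 genes, in 11 windows, 4 of them for Bcl2l1. The E-box CACGTG, the motif that MYC is known to bind, was in 0 of the 11 windows, against 6.42% of all 33469 windows of this length, so no match overlapped it. The AHR core GCGTG, like the E-box searched on both strands, was present in the windows of Bcl2l11, Bcl2l1 and Bad, and 29.7% of all windows hold it at least once. The Bcl2l11 window held 4 matches, a number reached by 1.23% of all windows, at 240, 199, 180 and 123 bases before the start site. The match at 123 bases reads on as CACGCG, a non-canonical E-box by the list of the study. One of the 4 Bcl2l1 windows held 1 match, at 51 bases before the start site, and the match of Bad lay 36 bases after it. The 250 bases before the start are shown for Bcl2l11 and Bcl2l1, the genes with matches before the start, whose values under the siRNAs are given further on. Each runs 5′ to 3′ on the strand of its gene, and capitals mark GCGTG or its reverse complement CACGC. They lie at chr3:135819792-135820041 (plus strand) and chr3:161763757-161764006 (minus strand). A match in letters is no evidence of binding.
Bcl2l11: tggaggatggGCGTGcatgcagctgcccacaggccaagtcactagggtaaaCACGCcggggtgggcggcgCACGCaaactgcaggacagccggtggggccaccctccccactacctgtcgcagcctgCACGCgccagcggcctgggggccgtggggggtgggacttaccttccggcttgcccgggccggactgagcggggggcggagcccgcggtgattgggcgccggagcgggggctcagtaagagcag
Bcl2l1: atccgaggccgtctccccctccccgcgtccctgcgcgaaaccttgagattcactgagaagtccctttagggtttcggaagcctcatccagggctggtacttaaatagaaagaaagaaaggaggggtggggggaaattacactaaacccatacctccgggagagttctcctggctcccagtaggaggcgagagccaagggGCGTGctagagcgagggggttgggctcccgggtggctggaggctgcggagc

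With MYC in the set of 6, the pro-survival gene Bcl2l1 and the BH3-only genes Pmaip1 and Bad fell, and no member rose. These are 3 of 10 members, all lower, where 26.8% of all genes were called and 14.3% were called lower. The median change of the members was -0.31, against -0.0038 over all genes. All 5 BH3-only genes had negative changes, from -0.22 for Bcl2l11 to -0.81 for Pmaip1. The myc-/- siCtrl and myc-/- + MYC libraries did not overlap for 9 of the 10 members, which was so for 78.8% of all genes. A false discovery rate of 5% without the fold cutoff was passed by 9 members and by 76.2% of all genes.

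Among the pro-survival genes Bcl2l1, which encodes BCL-XL, changed most. It measured 13.33, 13.34 and 13.41 in myc-/- siCtrl and 11.88, 11.92 and 12.08 in myc-/- + MYC. Every myc-/- + MYC library was thus lower by more than 1 unit, and Bcl2l1 fell by 1.40 on the log2 scale (SE 0.0491, 2.64-fold lower, limma adjusted p = 3.84e-10). Mcl1, whose short-lived protein binds NOXA and BIM, measured 13.81, 13.73 and 13.70 without MYC and 13.55, 13.64 and 13.69 with it, a change of -0.12 (SE 0.0413, limma adjusted p = 0.0221). Its groups were next to each other without overlap. The Mcl1 change was small enough to turn to 0.047 after quantile normalisation. Bcl2, the founding member of the family, measured 11.13, 11.30 and 11.19 against 11.19, 11.32 and 11.35, and these overlapped (change 0.08, SE 0.0567, limma adjusted p = 0.221). Without myc-/- siCtrl replicate 1 that change was 0.040, and without myc-/- + MYC replicate 1 it was 0.13.

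The effectors moved little in this set. Bax measured 13.27, 13.32 and 13.29 in myc-/- siCtrl and 13.16, 13.19 and 13.19 in myc-/- + MYC, a change of -0.11 (SE 0.0294, limma adjusted p = 0.00425) that became 0.0078 after quantile normalisation. Bak1 measured 12.59, 12.64 and 12.68 against 12.78, 12.85 and 12.89, a change of 0.21 (SE 0.0382, limma adjusted p = 0.000461). Neither reached the 1.5-fold cutoff, although neither pair of groups overlapped.

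The BH3-only genes were lower with MYC, 2 of 5 past both cutoffs. Pmaip1, whose product NOXA neutralises MCL1, measured 10.17, 10.10 and 10.16 in myc-/- siCtrl and 9.34, 9.34 and 9.33 in myc-/- + MYC. The 3 myc-/- + MYC libraries were nearly equal, and Pmaip1 fell by 0.81 (SE 0.0499, 1.75-fold lower, limma adjusted p = 4.48e-08). Bad, which binds BCL2 and BCL-XL and is held inactive by survival kinases, measured 12.68, 12.74 and 12.69 against 12.02, 11.88 and 11.88. It fell by 0.78 (SE 0.0441, 1.71-fold lower, limma adjusted p = 2.19e-08). Bbc3, the p53 target that encodes PUMA, measured 12.11, 12.16 and 12.18 against 11.63, 11.51 and 11.57, and its change of -0.58 (SE 0.0408, limma adjusted p = 1.36e-07) ended just short of the fold cutoff. It passed that cutoff without myc-/- siCtrl replicate 1 (-0.60) and without myc-/- + MYC replicate 1 (-0.61). Bid, which caspase-8 cleaves to link death receptors to mitochondria, measured 12.86, 12.99 and 13.00 against 12.53, 12.55 and 12.55 (change -0.41, SE 0.0393, limma adjusted p = 2.03e-06). Bcl2l11 measured 12.84, 12.91 and 12.92 against 12.72, 12.67 and 12.63 (change -0.22, SE 0.0358, limma adjusted p = 0.000189). The groups of both genes were apart, by less than 1.5-fold.

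**Figure D1:**
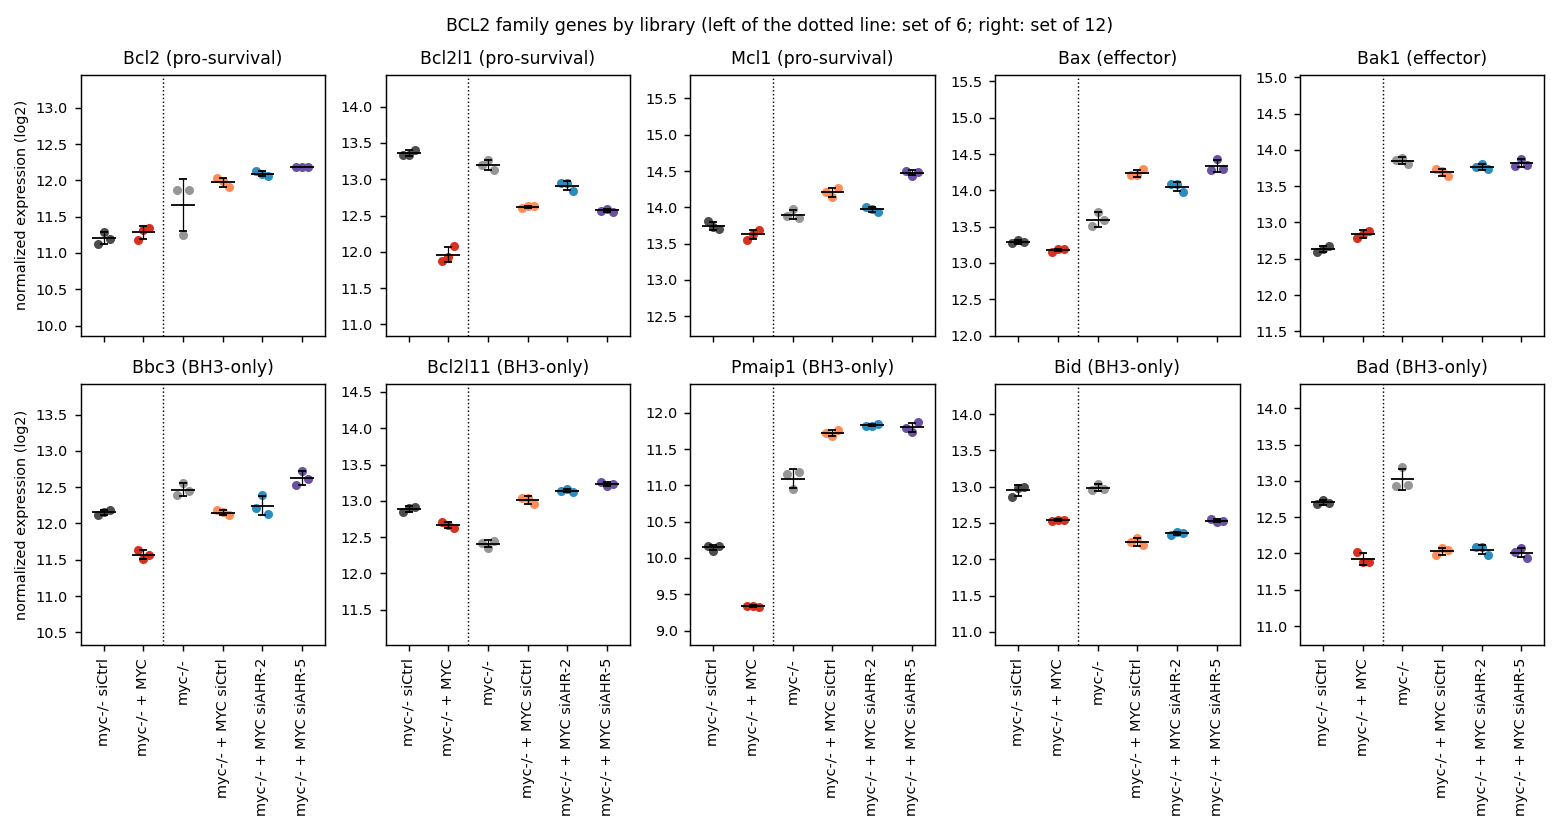
Normalised log2 value (vertical axis, each panel spanning the same 3.6 units) of each BCL2 family gene in each of the 18 libraries, with 1 point per library and a bar at each group mean; the dotted line separates the set of 6 from the set of 12, whose scales differ. Bcl2l1 and Bad are lower with MYC on both sides of the line, whereas Pmaip1 is lower with MYC on the left and higher on the right.

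The set of 12 gave a different list. Bax, Bcl2l11 and Pmaip1 rose with MYC and Bid and Bad fell, so 5 of 10 members were called, where 25.5% of all genes were called, 10.8% as higher and 14.7% as lower. The groups lay apart for all 10 members, as they did for 70.5% of all genes. Without the fold cutoff, 9 of 10 members passed a false discovery rate of 5%, as did 64.7% of all genes. The median change of the members was 0.07, against -0.00014 over all genes. Without myc-/- replicate 2, the library that stood apart, 3 members were called, of which 1 was higher and 2 lower.

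Bax and Bak1 differed in sign here. Bax measured 13.50, 13.70 and 13.59 in myc-/- and 14.21, 14.21 and 14.29 in myc-/- + MYC siCtrl, and it rose by 0.64 (SE 0.0572, 1.55-fold, limma adjusted p = 0.000159). Bak1 measured 13.86, 13.89 and 13.80 against 13.74, 13.70 and 13.64, a change of -0.16 (SE 0.0385, limma adjusted p = 0.0124). For Bax all MYC libraries were higher and for Bak1 all were lower.

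The BH3-only genes split. Bcl2l11, encoding BIM, measured 12.43, 12.35 and 12.45 in myc-/- and 13.04, 13.04 and 12.95 with MYC and siCtrl, and it rose by 0.60 (SE 0.0414, 1.52-fold, limma adjusted p = 5.07e-05). Pmaip1 measured 11.15, 10.94 and 11.18 against 11.72, 11.67 and 11.76, and it rose by 0.62 (SE 0.0717, 1.54-fold, limma adjusted p = 0.000476). Both calls rested on myc-/- replicate 2, the lowest of its group for each gene: without it the changes were 0.57 for Bcl2l11 and 0.55 for Pmaip1, under the fold cutoff. Bid measured 12.96, 13.04 and 12.97 against 12.23, 12.29 and 12.19 and fell by 0.75 (SE 0.0402, 1.68-fold lower, limma adjusted p = 1.78e-05). Bad measured 12.93, 13.19 and 12.95 against 11.98, 12.07 and 12.04 and fell by 0.99 (SE 0.0778, 1.99-fold lower, limma adjusted p = 8.7e-05), the largest change of any member in this set. Bbc3 measured 12.39, 12.56 and 12.45 against 12.18, 12.15 and 12.12, a change of -0.32 (SE 0.052, limma adjusted p = 0.0023). Bid, Bad and Bbc3 were therefore lower with MYC in every library, and Bcl2l11 and Pmaip1 higher.

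No pro-survival gene was called in the set of 12. Bcl2l1 measured 13.20, 13.27 and 13.13 in myc-/- and 12.60, 12.63 and 12.63 in myc-/- + MYC siCtrl. Its change of -0.58 (SE 0.0422, limma adjusted p = 6.44e-05) lay just inside the fold cutoff, and it was called without myc-/- replicate 3 (-0.62) or without myc-/- + MYC siCtrl replicate 3 (-0.59). Mcl1 measured 13.87, 13.97 and 13.86 against 14.22, 14.14 and 14.26, a change of 0.30 (SE 0.0466, limma adjusted p = 0.00168). Bcl2 measured 11.86, 11.25 and 11.87 against 12.03, 11.99 and 11.90, where myc-/- replicate 2 lay far below the other libraries. The Bcl2 change of 0.31 had a wide 95% interval of -0.12 to 0.75 (limma adjusted p = 0.171), and without that replicate it was 0.11.

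The difference between the MYC changes of the sets was itself tested, in a fit of the 4 groups. Bcl2l1, Bax, Bcl2l11 and Pmaip1 differed, each with a higher change in the set of 12, which makes 4 of 10 members where 16.5% of all genes were called, 6.79% higher and 9.67% lower. At a false discovery rate of 5% alone 8 members differed, as did 54.9% of all genes. Pmaip1 differed most, from -0.81 to 0.62, a difference of 1.43 (SE 0.0861, limma adjusted p = 3.03e-09). Bcl2l11 turned from -0.22 to 0.60, a difference of 0.82 (SE 0.0601, limma adjusted p = 2.67e-08). Bax went from -0.11 to 0.64, a difference of 0.75 (SE 0.065, limma adjusted p = 1.64e-07). Bcl2l1 was lower with MYC in both sets, by unequal amounts, with a difference of 0.82 (SE 0.0728, limma adjusted p = 2.13e-07). These 4 calls stood when each library was left out in turn. For Bad the changes of -0.78 and -0.99 differed by -0.22 (95% interval -0.41 to -0.03, limma adjusted p = 0.0525, and -0.13 without myc-/- replicate 2), and Bad was the single member called in the same direction in both sets. The remaining differences were 0.42 for Mcl1, 0.26 for Bbc3, 0.23 for Bcl2, -0.34 for Bid and -0.36 for Bak1, none of them called. That of Bcl2 was 0.026 without myc-/- replicate 2. The sets differ in scale and in which arm was transfected, and their part in these differences was not tested.

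**Figure D2:**
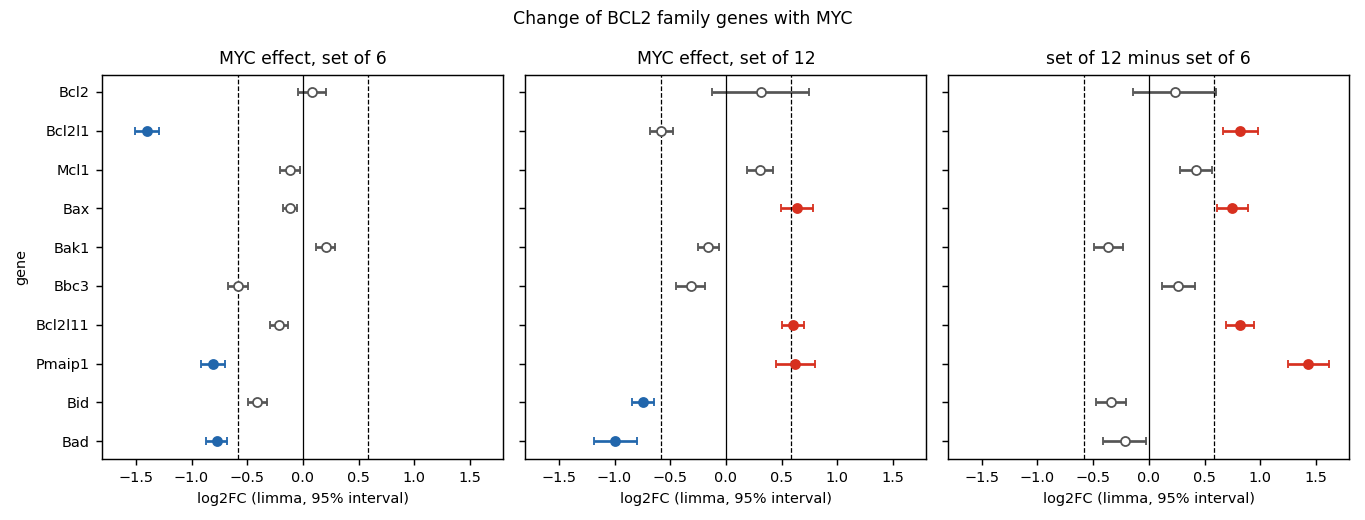
Change of each BCL2 family gene with MYC (horizontal axis, log2 fold change with its 95% limma interval) in the set of 6, in the set of 12 and as the difference of the 2; filled points passed both cutoffs (blue lower, red higher) and dashed lines mark 1.5-fold. Bad is filled on the left in the first 2 panels, and Pmaip1 lies at -0.81 in the first, 0.62 in the second and 1.43 in the third.

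To compare this family with and without siRNA against Ahr, each Ahr siRNA was set against siCtrl, in cells carrying MYC. No member was called with siAHR-2, where 0.47% of all genes were called, and none with siAHR-5, where 2.32% were. Both comparisons use the same 3 siCtrl libraries, so they are set side by side without a count of shared changes. Without the fold cutoff, at a false discovery rate of 5%, 6 of 10 members passed with siAHR-2 (background 29.3%) and 6 of 10 with siAHR-5 (background 39.2%). At an unadjusted p under 0.05 the numbers were 7 and 6, against 40.4% and 47.8% of all genes. Groups did not overlap for 7 members in each comparison, against 43.3% and 50.5% of all genes.

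The pro-survival genes had unlike values under the siRNAs. Bcl2l1 measured 12.60, 12.63 and 12.63 with siCtrl, 12.94, 12.95 and 12.84 with siAHR-2, and 12.56, 12.59 and 12.55 with siAHR-5. All siAHR-2 libraries were above siCtrl (change 0.29, SE 0.0341, limma adjusted p = 0.00327), whereas siAHR-5 gave a change of -0.05 (95% interval -0.10 to 0.0037, limma adjusted p = 0.125). Mcl1 measured 14.22, 14.14 and 14.26 with siCtrl, 14.00, 13.98 and 13.94 with siAHR-2, and 14.51, 14.44 and 14.49 with siAHR-5. Mcl1 was below siCtrl in every siAHR-2 library (change -0.23, SE 0.0348, limma adjusted p = 0.00667) and above it in every siAHR-5 library (change 0.27, SE 0.0372, limma adjusted p = 0.00334). Bcl2 measured 12.03, 11.99 and 11.90 with siCtrl, 12.13, 12.09 and 12.06 with siAHR-2, and 12.19, 12.18 and 12.19 with siAHR-5, so that siAHR-2 differed by 0.12 (limma adjusted p = 0.0784) while siAHR-5 differed by 0.22 (limma adjusted p = 0.00701). Bcl2 was above siCtrl in all 6 siRNA libraries.

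For the effectors, Bax measured 14.21, 14.21 and 14.29 with siCtrl, 14.08, 14.09 and 13.98 with siAHR-2, and 14.28, 14.44 and 14.29 with siAHR-5. The change was -0.18 with siAHR-2 (limma adjusted p = 0.0231) and 0.10 with siAHR-5 (limma adjusted p = 0.165, and 0.054 without siAHR-5 replicate 2), so Bax was lower than siCtrl in all siAHR-2 libraries. Bak1 measured 13.74, 13.70 and 13.64 with siCtrl, 13.76, 13.81 and 13.73 with siAHR-2, and 13.78, 13.88 and 13.80 with siAHR-5, so that siAHR-2 differed by 0.07 (limma adjusted p = 0.155, and 0.048 without siCtrl replicate 3) while siAHR-5 differed by 0.13 (limma adjusted p = 0.0465). Its siAHR-2 libraries overlapped siCtrl.

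Among the BH3-only genes Bbc3 had the largest change with siAHR-5. It measured 12.18, 12.15 and 12.12 with siCtrl, 12.21, 12.39 and 12.13 with siAHR-2, and 12.53, 12.73 and 12.61 with siAHR-5. The siAHR-5 libraries were all above siCtrl by 0.47 on average (SE 0.0537, 1.39-fold, limma adjusted p = 0.0018), while siAHR-2 overlapped siCtrl (change 0.09, 95% interval -0.08 to 0.27, limma adjusted p = 0.388, and 0.020 without siAHR-2 replicate 2 or 0.15 without siAHR-2 replicate 3). Bcl2l11 measured 13.04, 13.04 and 12.95 with siCtrl, 13.14, 13.17 and 13.12 with siAHR-2, and 13.26, 13.21 and 13.24 with siAHR-5. Bcl2l11 was higher than the shared siCtrl libraries by 0.13 with siAHR-2 (limma adjusted p = 0.0302) and 0.22 with siAHR-5 (limma adjusted p = 0.00413). Both changes were under 1.5-fold. Bid measured 12.23, 12.29 and 12.19 with siCtrl, 12.33, 12.38 and 12.36 with siAHR-2, and 12.55, 12.51 and 12.53 with siAHR-5, so that siAHR-2 differed by 0.12 (limma adjusted p = 0.0442) while siAHR-5 differed by 0.29 (limma adjusted p = 0.00168). Neither group of Bid overlapped the shared siCtrl libraries.

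The remaining BH3-only genes, Pmaip1 and Bad, were within 0.11 of siCtrl on average. Pmaip1 measured 11.72, 11.67 and 11.76 with siCtrl, 11.82, 11.82 and 11.84 with siAHR-2, and 11.79, 11.74 and 11.87 with siAHR-5, so that siAHR-2 differed by 0.11 (limma adjusted p = 0.033) while siAHR-5 differed by 0.08 (limma adjusted p = 0.193, and 0.048 without siAHR-5 replicate 3). Bad measured 11.98, 12.07 and 12.04 with siCtrl, 12.09, 12.08 and 11.98 with siAHR-2, and 12.02, 12.07 and 11.94 with siAHR-5. The 95% interval of its change was -0.08 to 0.13 with siAHR-2 and -0.13 to 0.09 with siAHR-5. The sign of the change depended on the scaling with siAHR-2 only, and on single libraries with either siRNA.

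The siRNAs were then compared with each other, which leaves siCtrl out. No member was called between them, where 2.18% of all genes were called, although 7 of 10 passed a false discovery rate of 5% alone (background 39.1%) and 7 had an unadjusted p under 0.05 (background 46.8%). The siRNA groups did not overlap for 7 members, against 49.5% of all genes. Mcl1 was higher with siAHR-5 than with siAHR-2 by 0.51 (SE 0.0259, 1.42-fold, limma adjusted p = 0.000154). Bcl2l1 was lower by 0.34 on that comparison (log2 change -0.34, SE 0.0349, limma adjusted p = 0.00121). For these pro-survival genes the 3 libraries of one siRNA lay wholly apart from those of the other. Bbc3 was higher with siAHR-5 by 0.38 (SE 0.0833, limma adjusted p = 0.0164) and Bax by 0.29 (SE 0.053, limma adjusted p = 0.0089). The siRNAs thus left Ahr at 11.76 to 12.03 and no member differed between them by 1.5-fold.

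**Figure D3:**
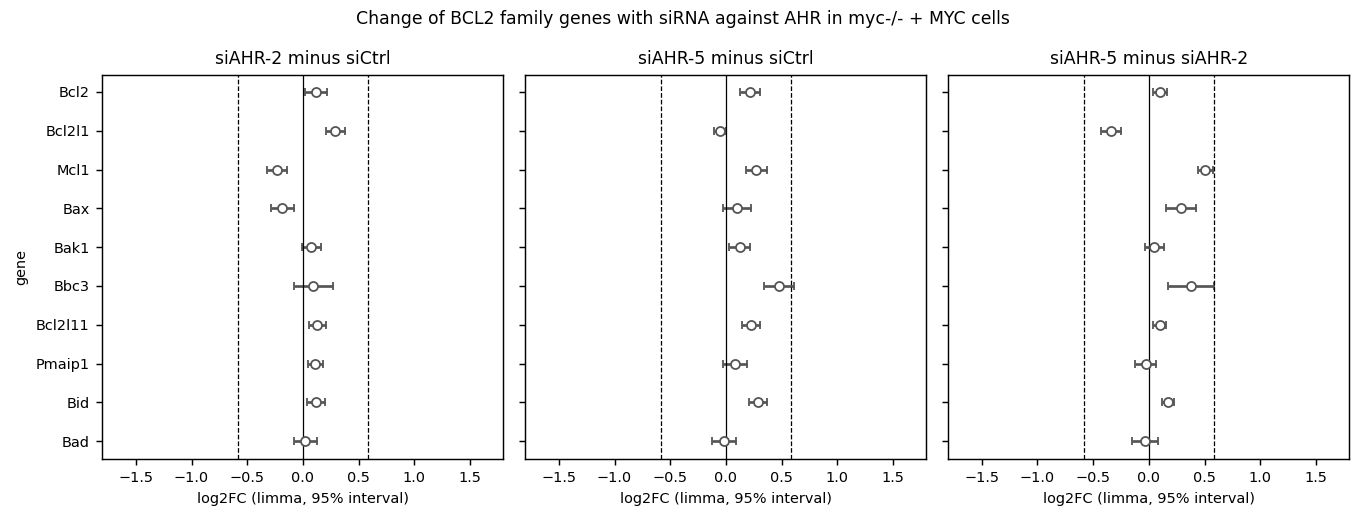
Change of each BCL2 family gene in myc-/- + MYC cells (horizontal axis, log2 fold change with its 95% limma interval) for siAHR-2 against siCtrl, siAHR-5 against siCtrl, and siAHR-5 against siAHR-2; dashed lines mark 1.5-fold. No point crosses a dashed line, and Mcl1 lies at -0.23 in the first panel, 0.27 in the second and 0.51 in the third.

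Log2 differences between an opposing pair of genes in the same library are not moved by a shift shared by all genes of that library. Scaling that moves genes unequally, such as quantile normalisation, can move them. These differences were taken for 4 pairs, in 20 tests. The values are not per transcript length, so only their change between groups is read. Bcl2l1 minus Bax was 0.07, 0.02 and 0.12 in myc-/- siCtrl and -1.28, -1.26 and -1.11 in myc-/- + MYC. In the set of 12 it was -0.30, -0.43 and -0.46 in myc-/- and -1.60, -1.58 and -1.66 in myc-/- + MYC siCtrl. The level of Bcl2l1 relative to Bax, over all isoforms, was thus lower with MYC in both sets, by 1.29 and 1.22 on the log2 scale, which came mainly from lower Bcl2l1 in one set and from lower Bcl2l1 with higher Bax in the other. With siAHR-2 it was -1.14 in all 3 libraries, above siCtrl by 0.47, and with siAHR-5 it was -1.72, -1.84 and -1.74, below siCtrl by 0.15. None of these groups overlapped. An exact permutation test of 3 against 3 libraries, 2-sided, cannot give less than 0.1, and each of these 4 changes gave p = 0.1 (0.125 after Benjamini-Hochberg adjustment over the 20).

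Mcl1 minus Pmaip1, the pair of MCL1 and its antagonist NOXA, went in unlike directions. It was 3.64, 3.63 and 3.53 in myc-/- siCtrl and 4.21, 4.30 and 4.36 in myc-/- + MYC, higher with MYC by 0.69. It was 2.72, 3.03 and 2.67 in myc-/- and 2.50, 2.47 and 2.50 in myc-/- + MYC siCtrl, lower with MYC by 0.32 (log2 change -0.32, and -0.21 without myc-/- replicate 2). Neither comparison had overlapping groups, and both gave the smallest exact p, 0.1. With siAHR-2 the difference was 2.15 ± 0.0412 (SD, n = 3), and with siAHR-5 it was 2.68 ± 0.0469 (SD, n = 3), against 2.49 ± 0.0198 (SD, n = 3) with siCtrl, so one siRNA lay below siCtrl and the other above it. Mcl1 minus Bcl2l11 changed by 0.10 with MYC in the set of 6 (exact permutation p = 0.3) and by -0.30 in the other set (exact permutation p = 0.1), by -0.36 with siAHR-2 (exact permutation p = 0.1) and by 0.05 with siAHR-5 (exact permutation p = 0.5). Bcl2 minus Bax changed by 0.19 (exact permutation p = 0.1) and -0.32 (exact permutation p = 0.4, overlapping through myc-/- replicate 2 at -2.45, with -0.58 without it and -0.17 without myc-/- replicate 1), and by 0.30 with siAHR-2 (exact permutation p = 0.1) and 0.11 with siAHR-5 (exact permutation p = 0.3, and 0.050 without siCtrl replicate 3). The small Mcl1 minus Bcl2l11 changes also moved when single libraries were left out, from 0.049 to 0.16 for MYC in the set of 6 and from 0.0025 to 0.11 for siAHR-5. Between the siRNAs, siAHR-5 minus siAHR-2 was -0.63 for Bcl2l1 minus Bax, 0.54 for Mcl1 minus Pmaip1, 0.41 for Mcl1 minus Bcl2l11 and -0.19 for Bcl2 minus Bax, each without overlap and with the smallest exact permutation p, 0.1. The first of these is 1.54-fold, while no single member differed between the siRNAs by 1.5-fold.

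**Figure D4:**
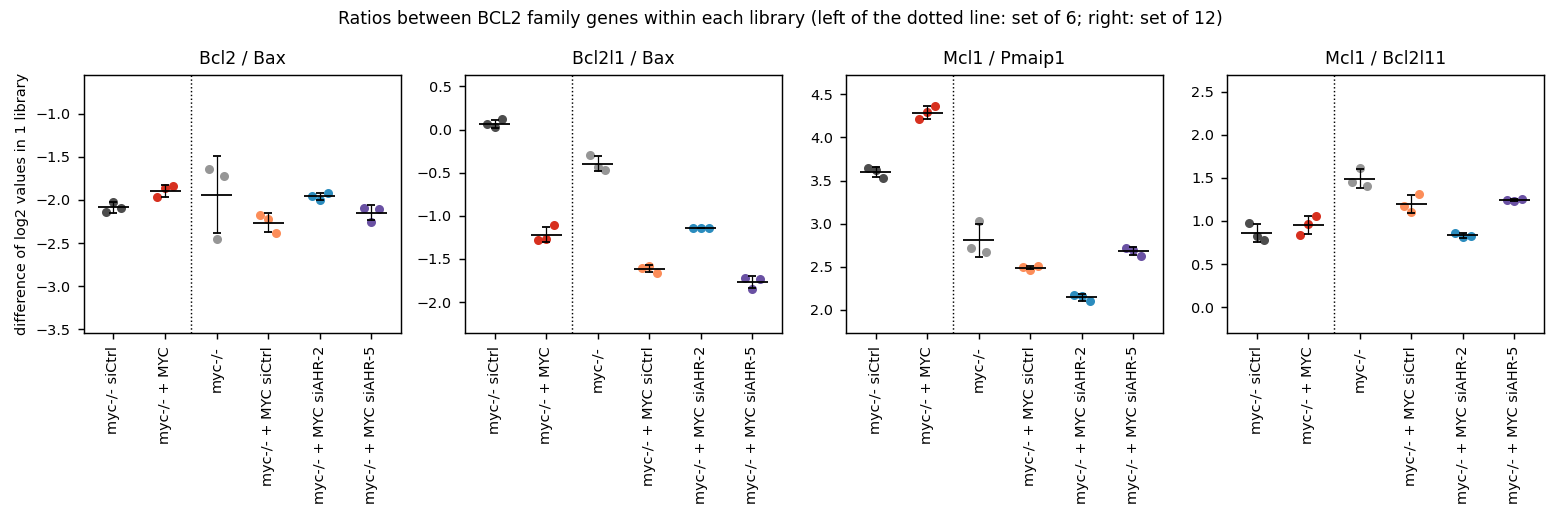
Difference of the log2 values of 2 BCL2 family genes in 1 library (vertical axis, log2 units, each panel spanning 3 units), with 1 point per library and a bar at each group mean; the dotted line separates the set of 6 from the set of 12. Bcl2l1 minus Bax is lower with MYC on both sides of the line, by 1.29 and 1.22.

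The rest of the apoptosis machinery was described from a list of 53 genes, of which 48 were in the table. In the set of 6, 2 of the 48 rose and 8 fell with MYC, and 26.8% of all genes were called there. The set of 12 had 3 that rose and 8 that fell, where 25.5% of all genes were called, so neither count exceeds the share over all genes. The median changes of the 48 were -0.09 and -0.01. Read against the 14.3% and 14.7% of all genes called lower, the sublists were as follows. Of the 13 other BCL2 family genes in the table, 1 fell and none rose in each set. Among 9 apoptosome and mitochondrial factors 1 fell in each set, in the set of 12 the mitochondrial nuclease gene Endog (-0.94). Of 6 inhibitors of apoptosis 1 fell in each set, Birc3 (-1.15 and -1.38). Among 10 caspases and nucleases 1 fell in the smaller set and 3 fell in the larger. Casp1, which encodes the inflammatory caspase-1, fell in both (-1.20 and -2.46), and Casp8, the caspase of the death receptors, fell in the set of 12 (-0.91).

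Death receptors and their adaptors had 6 of 10 genes called in the smaller set and 5 of 10 in the larger, against the same 26.8% and 25.5% of all genes, and no difference between the lists was tested. Tnfrsf10b, the receptor of the death ligand TRAIL, measured 5.12, 5.11 and 5.11 in myc-/- siCtrl and 6.26, 6.50 and 6.44 in myc-/- + MYC, and 7.68, 7.72 and 7.67 in myc-/- against 10.28, 10.29 and 10.28 in myc-/- + MYC siCtrl. It rose by 1.29 and by 2.59 (SE 0.0615 and 0.0448), on a scale that may understate changes of genes as low as this one in myc-/- siCtrl. Ripk1, the kinase below these receptors, fell in both sets (-0.82 and -1.40). The TRAIL gene Tnfsf10 rose in the set of 6 (0.91). Fas measured 12.87, 12.88 and 12.83 in myc-/- siCtrl and 11.62, 11.49 and 11.45 in myc-/- + MYC, a fall of 1.34 (log2 change -1.34, SE 0.0452), but 11.90, 11.95 and 11.83 in myc-/- and 12.24, 12.19 and 12.20 in myc-/- + MYC siCtrl. Its MYC changes differed between the sets by 1.66 (SE 0.068, limma adjusted p = 4.37e-11). In all, 7 of the 48 had a higher change in the set of 12 and 3 a lower one, where 6.79% and 9.67% of all genes did. Pidd1 (1.35), Tnfrsf10b (1.31) and Bnip3 (1.10) were among the first, and Casp1 (-1.26) and Casp4 (-0.89) among the second. The Tnfrsf10b difference would be overstated if its change in the set of 6 is understated. None of the 48 was called with siAHR-2, with siAHR-5 or between them, while 13, 19 and 19 passed a false discovery rate of 5% alone, close to the shares over all genes (29.3%, 39.2% and 39.1%).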

How the data were processed

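Poly-A RNA of 18 libraries was sequenced, with a library kit that does not mark strand. The authors aligned reads to rn6 with HISAT2 2.1.0, dropped genes with few reads and normalised with DESeq2 (read counter and annotation not given in the sources used here). The values they deposited are on a log2 scale that is not log CPM. The transformation and the depth of each library are unknown, so no counting interval can be given. Fold changes of low genes may be understated. From these values limma 3.58.1 (R 4.3.3; lmFit, eBayes with trend) compared only the groups named, with all 13188 genes in each fit and no filter on low values. Differences within a library were tested by exact permutation (SciPy 1.17.1, Python 3.11.15). On simulated data of the set of 6, 200 of 200 genes changed by 1 on the log2 scale were called, and 0 of 12988 unchanged genes.

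The members and the lists of apoptosis genes and markers were chosen with earlier results of these data known. All 10 members are named. Of the other apoptosis genes, those past both cutoffs are named, up to the 6 with the largest change in each comparison. Alternatives were quantile normalisation, median centring, a minimum mean of 5, a pseudocount of 1 on the linear scale, limma without trend, all 18 libraries in one fit, a replicate block, a 5% false discovery rate without a fold cutoff, and each library left out. Sequences came from RefSeq, GRCr8, and the deposited rn6 values were joined to them by symbol only.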

Additional observations from a re-analysis of the deposited data

Results flagged for a closer look

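Of the results on the BCL2 family, 4 were singled out because the change with MYC differed between the set of 6 and the set of 12 in a test of that difference. The difference, as the change in the set of 12 minus that in the set of 6, was 1.43 for Pmaip1, 0.82 for Bcl2l1, 0.82 for Bcl2l11 and 0.75 for Bax. For Pmaip1, Bcl2l11 and Bax the libraries with MYC lay below those without it in the set of 6 and above them in the set of 12. Bax kept its sign in the set of 6 under every alternative except quantile normalisation, as given above. For Bcl2l1 the libraries with MYC lay below in both sets, and the size of the change differed. Which arm was transfected also differs between the sets, and its part cannot be told apart from that of the set.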

How the results depend on the processing

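With both cutoffs, 825 of 840 member changes under the alternatives other than the one without a fold cutoff kept their direction and their side of the cutoffs, 8 changed sign, 5 were newly called and 2 lost their call. The changes of sign were all in small values: with MYC in the set of 6, quantile normalisation gave 0.047 for Mcl1 and 0.0078 for Bax. For Bad with siAHR-2 it gave -0.00068, median centring -0.0097 and leaving out myc-/- + MYC siCtrl replicate 1 -0.0055 (-0.0055 to 0.057 over the libraries left out). For Bad with siAHR-5 the change was 0.018 without siAHR-5 replicate 3 and 0.0043 without siCtrl replicate 2 (-0.047 to 0.018), and for Pmaip1 between the siRNAs it was 0.0011 without siAHR-5 replicate 2 (-0.064 to 0.0011). Bbc3 was called in the set of 6 after median centring (-0.62). Leaving out each library in turn, 3 to 4 members were called with MYC in the set of 6, 3 to 6 in the set of 12, 4 to 4 for the difference between the sets, and 0 to 0 in each comparison of siRNAs. Over all genes the ranges were 3518 to 3567, 3263 to 3413, 2139 to 2231, 52 to 64 (siAHR-2), 274 to 297 (siAHR-5) and 258 to 280 (between the siRNAs).

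At a false discovery rate of 5% without a fold cutoff, 9, 9, 8, 6, 6 and 7 members passed, in the same order of comparisons, and 10051, 8538, 7235, 3860, 5169 and 5151 genes, against 3537, 3361, 2171, 62, 306 and 287 with both cutoffs, which follows from dropping the fold cutoff and loosening the other. Scaling moved the balance of higher and lower calls over all genes: in the set of 6 from 1653 higher and 1884 lower to 1799 and 1684 with quantile normalisation and 1492 and 2046 with median centring, in the set of 12 from 1425 higher and 1936 lower to 1796 and 1660 with quantile normalisation, for the difference between the sets from 896 and 1275 to 1148 and 1036 with median centring, for siAHR-2 from 21 and 41 to 15 and 53 with median centring, and for siAHR-5 from 194 and 112 to 127 and 126 with quantile normalisation and 140 and 165 with median centring. The cause was not tested. The replicate numbers did not pair the libraries: correlations of same-numbered libraries ran from -0.27 to 0.26, and 0 to 4 of 6 libraries in a comparison correlated best with their own number. With the number as a block, 3, 5, 4, 0, 0 and 0 members were called, and over all genes 0 with siAHR-2. Depth, which is unknown, limits what can be said of low genes.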
